A study of Mus musculus with 8 samples.

Results

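Sphincter 2 is one of the smooth muscle classes of the mouse iris, and its transcriptome was compared here between irises constricted with pilocarpine and untreated irises. All nuclei that the authors had assigned to sphincter 2 in the 3 constricted and the 3 untreated libraries were taken, 555 of the 23330 nuclei of these 6 libraries and of the 34357 nuclei of the 8 libraries in the series, and their unique molecular identifiers (UMIs, one per captured transcript) were summed per library. Single nucleus RNA-seq had been performed on irises of 6 to 8 week-old female albino wild type mice, with 5 or 6 irises pooled in a library. The constricted group had received 5% pilocarpine eye drops each hour over 6.5 hours in the light, the untreated group no drug, and the 2 dilated libraries, used for reference only, 5% phenylephrine with 1% cyclopentolate in the dark. Each library is a pool of several animals, so the spread between libraries is a spread between pools, and the drug cannot be told apart from the hours of handling and lighting that came with it. The labels number the libraries, but which of the 5 processing batches or 2 sequencing runs a library belonged to is not given in the sources used here.

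Pilocarpine activates muscarinic acetylcholine receptors. In the sphincter, the M3 receptor couples through Gq to phospholipase C-beta, inositol trisphosphate and calcium release, and calcium-calmodulin switches on myosin light chain kinase and with it the actin and myosin of the muscle. Sustained receptor activation in many cells also induces immediate early genes such as *Fos* and *Egr1*, and long contraction loads the adhesions that tie the actin filaments to the basement membrane.

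The 3 untreated libraries held 26, 136 and 190 sphincter 2 nuclei and the 3 constricted libraries 96, 28 and 79. The summed UMIs ran from 109148 to 674523 in the untreated and from 138550 to 308041 in the constricted libraries, so that untreated replicate 1 and constricted replicate 2 were the thinnest. The median UMIs per nucleus ranged from 2944 to 4823.5 over the 6 libraries. All 12 sphincter 2 markers were detected, each of them ranked first or second among the 10 cell types in untreated irises, and their summed level was 22813 to 23380 counts per 1000000 UMIs (CPM) in the untreated and 23431 to 24728 CPM in the constricted libraries. Of the markers of other cell types, those of sphincter 1 summed to 651 to 1008 CPM and 751 to 881 CPM, and those of dilator muscle to 3115 to 3558 CPM and 2292 to 3197 CPM. Stroma 2 markers (6 genes) stood at 95.7 to 139 CPM in the untreated and at 38.0 to 68.2 CPM in the constricted libraries, without overlap. Schwann cell and nerve markers, 7 of whose 8 genes are in the files, moved the other way, with 45.8, 52.0 and 60.8 CPM in the untreated and 84.4, 93.8 and 71.7 CPM in the constricted libraries, also without overlap, and 37.0 and 44.3 CPM in the dilated libraries. Of these, *Prph* alone had enough counts to be tested (log2 0.74, edgeR adjusted p = 0.946), and the part of such RNA in the genes that were higher was not tested. The summed markers of epithelium, stroma 1, endothelium and leukocytes overlapped between the groups. The share of sphincter 2 nuclei with a UMI of a marker of stroma, epithelium, endothelium or leukocytes was 14.2% to 23.1% in the untreated and 3.57% to 11.5% in the constricted libraries, again without overlap (exact permutation test, two-sided, p = 0.1, which is the smallest p that 3 against 3 libraries can give). No sphincter 2 barcode was shared between libraries.

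Sphincter 2 made up 2.27% ± 0.597 (SD, n = 3) of the nuclei of an untreated and 2.25% ± 0.0459 (SD, n = 3) of those of a constricted library. The difference of -0.0204 percentage points was smaller than the spread between libraries (exact permutation test, two-sided, p = 1).

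Few transcripts were called as different between constricted and untreated sphincter 2. In simulated counts at this depth, the same test recovered 52.7% of 91 tested genes with a true absolute log2 fold change of 1. In that simulation 93 further tested genes were changed by 2. With so many changed genes the adjusted p is easier to pass, so this recovery may be too high for data with few changes. Of 6691 genes tested, 6 passed the threshold of an absolute log2 fold change above 0.6 with an adjusted p under 0.05, which is 0.0897% of the genes. *Ptprz1*, *Nckap5*, *Pappa* and *Gm14661* were higher in the constricted libraries (4 genes, 0.0598%), and *Ptn* and *Pcsk5* were lower (2 genes, 0.0299%). The median log2 fold change over all genes was 0.01, with 51% of them above 0, and 397 genes (5.93%) had an unadjusted p under 0.05. The same threshold called 1 gene in dilator muscle (0.0065%), 1 in iris pigment epithelium (iris PE; 0.00708%), 2 in stroma 2 (0.0156%) and 0 in the 6 other cell types. For comparison, 192 genes (2.87%) passed the same threshold in sphincter 2 between dilated and untreated libraries. In DESeq2, 1 gene (*Pappa*) passed. Without untreated replicate 2 or without untreated replicate 3, 0 genes passed in edgeR (234 and 221 genes at an unadjusted p under 0.05), and without constricted replicate 2 only *Gm14661* did. With the thinnest untreated and the thinnest constricted library both left out, 5 genes passed, among them *Ptprz1*, *Pappa*, *Pcsk5* and *Gm14661*.

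**Figure D1:**
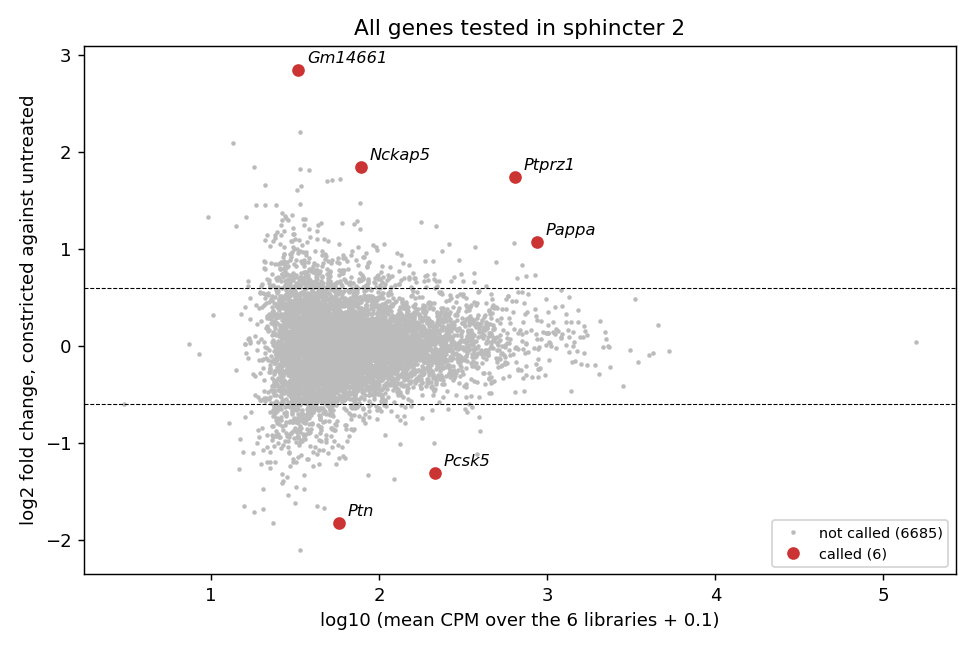
Log2 fold change in sphincter 2 between constricted and untreated libraries (y axis) against the log10 mean CPM over the 6 libraries (x axis), with 1 point for each of the 6691 genes tested. The 6 called genes are in red and named, and the dashed lines mark log2 fold changes of 0.6 and -0.6. Grey points beyond the lines did not pass the adjusted p.

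*Ptprz1* codes for receptor-type tyrosine phosphatase zeta, a transmembrane receptor whose ligands include pleiotrophin and midkine. It lies on chromosome 6, from 22875502 to 23052916 (GRCm38, plus strand). Its level in sphincter 2 was 733, 196 and 125 CPM in the 3 untreated libraries and 773, 1148 and 857 CPM in the 3 constricted libraries. The 2 groups did not overlap, but untreated replicate 1 lay just under constricted replicate 1. The fitted log2 fold change was 1.75 ± 0.33 (SE; edgeR adjusted p = 0.0214), a 3.36-fold difference. The 2 dilated libraries were at 88.9 and 71.5 CPM, below all 6 others, with a log2 fold change from untreated of -1.71 (edgeR adjusted p = 0.0352). Hence the 3 conditions are ordered constricted, untreated, dilated, with the untreated libraries spread over most of the range.

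The difference in *Ptprz1* was also seen in the share of nuclei. At least 1 *Ptprz1* UMI was found in 69.2%, 41.2% and 28.9% of the nuclei of the untreated libraries and in 66.7%, 82.1% and 70.9% of those of the constricted libraries. With each nucleus thinned to 1000 UMIs (1 of the 555 nuclei had fewer), the shares were 34.6%, 13.2% and 12.2% against 43.8%, 60.7% and 38.0%. In stroma 2, which should lack *Ptprz1*, 1.48% of untreated nuclei (median 2425 UMIs per nucleus) and 2.22% of constricted nuclei (median 2336) had a UMI, against medians of 3460.5 and 3172 UMIs in sphincter 2. No nucleus held more than 13.2% of the *Ptprz1* UMIs of one of these 6 libraries. The comparison differed between series of libraries. By the library numbers of the labels, the 3 first replicates follow each other. Between these, constricted over untreated was 1.05 for *Ptprz1*, whereas constricted replicate 3 over the mean of untreated replicates 2 and 3, whose numbers also lie together, was 5.35. With the series as a block the log2 fold change was 1.58 (edgeR adjusted p = 0.0109), and without untreated replicate 3 it was 1.19 (adjusted p = 0.761). Constricted replicate 2 is alone in its series, so it adds nothing to the blocked estimate. In DESeq2 the log2 fold change of *Ptprz1* was 1.47 ± 0.68 (SE; adjusted p = 0.9997).

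The promoter of *Ptprz1* is given as the receptor gene that the comparison turns on, and that of *Pcsk5* as the called gene whose levels did not overlap between the groups in either sphincter class. Each is the RefSeq sequence (GRCm38.p6) of the 250 bases before the start of the transcript, on the strand of the gene, at chr6:22875252-22875501 (plus strand) and chr19:17837633-17837882 (minus strand).
Ptprz1: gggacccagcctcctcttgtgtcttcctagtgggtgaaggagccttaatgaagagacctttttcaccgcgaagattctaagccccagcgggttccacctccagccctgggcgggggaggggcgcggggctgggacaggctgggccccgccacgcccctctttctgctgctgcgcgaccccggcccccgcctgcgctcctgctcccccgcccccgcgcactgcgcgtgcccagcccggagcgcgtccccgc
Pcsk5: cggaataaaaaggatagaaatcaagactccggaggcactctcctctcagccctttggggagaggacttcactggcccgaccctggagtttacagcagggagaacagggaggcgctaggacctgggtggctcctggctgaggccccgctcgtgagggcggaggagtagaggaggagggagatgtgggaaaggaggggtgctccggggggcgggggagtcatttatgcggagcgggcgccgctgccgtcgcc
Both strands were searched for the cyclic AMP response element TGACGTCA, its part TGACG, the AP-1 motif TGANTCA and the CArG box, which binds serum response factor. These are found in 1.55%, 17.8%, 6.75% and 1.47% of all 32851 promoter windows of this length, and TGACG is contained in TGACGTCA. None of them is in these windows, nor in the other 3 windows of called genes (2 of *Nckap5* and 1 of *Ptn*), so no letters are in capitals. Of the 6 called genes, 4 were matched to a promoter.

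*Pappa* codes for pappalysin-1, a metalloprotease that cleaves insulin-like growth factor binding proteins and so releases the growth factor. It is on chromosome 4 from 65124174 to 65357509 (plus strand). The untreated libraries had 779, 554 and 409 CPM and the constricted libraries 1208, 1328 and 916 CPM. All constricted libraries were above all untreated ones, with a log2 fold change of 1.07 ± 0.21 (SE; edgeR adjusted p = 0.0214). The dilated libraries, at 607 and 470 CPM, lay within the untreated range, with a log2 fold change of 0.03 (edgeR adjusted p = 0.977). A *Pappa* UMI was found in 61.6% to 80.8% of untreated and in 78.6% to 88.5% of constricted nuclei, and after thinning in 28.0% to 38.5% and 51.9% to 64.3%. Of the 6 genes it was the only one to pass in DESeq2. Other members of the insulin-like growth factor axis, 13 of whose 23 genes were tested, included *Igfbp2*, a binding protein for these growth factors, with 27.5, 8.32 and 8.90 CPM in the untreated and 29.2, 65.0 and 63.3 CPM in the constricted libraries (log2 2.21 ± 0.56, edgeR adjusted p = 0.142). *Igf1r*, the receptor, stood at 246 to 366 CPM and 308 to 426 CPM (log2 0.29, adjusted p = 0.946) and *Igfbp7* at 828 to 1090 CPM and 664 to 756 CPM (log2 -0.32, adjusted p = 0.923). Only *Pappa* of this list passed the threshold, and the list was chosen with earlier results of these data known.

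*Pcsk5*, the proprotein convertase 5 that cleaves secreted precursors, is on chromosome 19 from 17432319 to 17837632 (minus strand). Its levels were 192, 308 and 393 CPM in untreated and 87.7, 130 and 169 CPM in constricted libraries. The groups did not overlap, and the log2 fold change was -1.31 ± 0.26 (SE; edgeR adjusted p = 0.0214). The dilated libraries were as low, at 119 and 129 CPM (log2 fold change from untreated -1.28, edgeR adjusted p = 0.00782). A *Pcsk5* UMI was seen in 52.9% to 61.5% of untreated nuclei and 24.0% to 46.4% of constricted nuclei. After thinning the shares were 15.4%, 29.4% and 31.2% against 9.38%, 14.3% and 13.9%. Untreated replicate 1 (4 of 26 nuclei) and constricted replicate 2 (4 of 28 nuclei) were then nearly alike, and the 2 larger untreated libraries stood above all constricted ones.

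*Nckap5*, which codes for an Nck-associated protein and lies on chromosome 1 from 125913620 to 126830799 (minus strand), had 36.6, 43.7 and 22.2 CPM in untreated and 101, 166 and 97.1 CPM in constricted libraries. These values rest on 4, 21 and 15 UMIs and on 31, 23 and 23 UMIs. The groups did not overlap, with a log2 fold change of 1.84 ± 0.35 (SE; edgeR adjusted p = 0.0214). The dilated libraries had 33.3 and 10.2 CPM. In untreated irises sphincter 2 ranked 8th of the 10 cell types for *Nckap5*, at a mean of 34.2 CPM. Untreated and constricted means were 953 and 915 CPM in ciliary body epithelium, 714 and 667 CPM in ciliary body, and 289 and 285 CPM in iris PE. Dilator muscle had 159 and 223 CPM (log2 0.51 ± 0.15, SE), without passing the threshold. The part of RNA of other cell types in the *Nckap5* values was not tested.

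*Gm14661* is annotated as an antisense RNA, and whether counting used the strand is not given in the sources used here, so reads of the other strand may be among its counts. It had 9.16, 6.24 and 10.4 CPM in the untreated and 87.7, 7.22 and 76.0 CPM in the constricted libraries, so constricted replicate 2 lay within the untreated range. The fitted log2 fold change was 2.85 ± 0.58 (SE; edgeR adjusted p = 0.0318). A single nucleus supplied 23 of the 27 UMIs of constricted replicate 1, and another 17 of the 18 UMIs of constricted replicate 3. Without these nuclei the libraries stood at 13.1 and 4.29 CPM. The share of nuclei with a UMI was 2.21% to 3.85% in untreated and 2.53% to 5.21% in constricted libraries, overlapping. The call of *Gm14661* therefore rests on 2 nuclei.

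**Figure D2:**
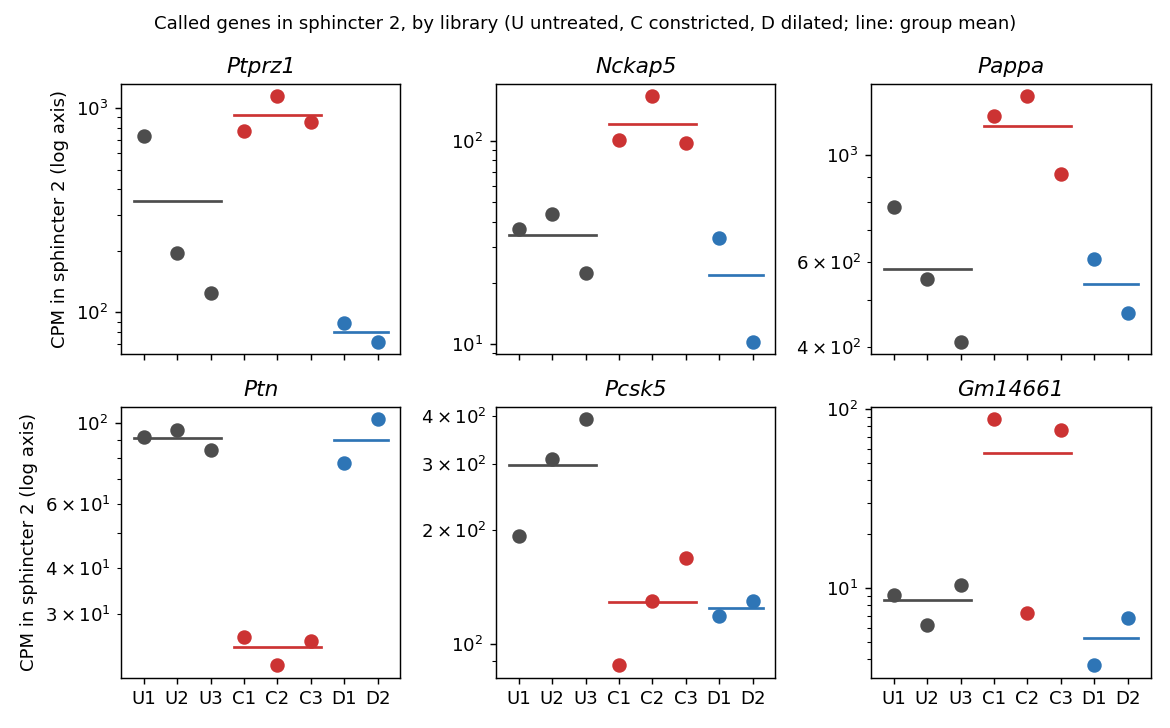
CPM in sphincter 2 (y axis, log scale) of the 6 called genes in each untreated (U, grey), constricted (C, red) and dilated (D, blue) library, 1 point per library with the group mean as a line. In 5 genes the constricted and untreated libraries do not overlap, Ptprz1 of U1 is just under that of C1, and Gm14661 of C2 is at the untreated level.

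*Ptn* codes for pleiotrophin, a secreted heparin-binding growth factor, and is on chromosome 6 from 36714929 to 36810220 (minus strand). It had 91.6, 95.7 and 84.5 CPM in untreated and 26.0, 21.7 and 25.3 CPM in constricted sphincter 2 nuclei, on 10, 46 and 57 UMIs and 8, 3 and 6 UMIs. The groups were narrow and did not overlap, with a log2 fold change of -1.82 ± 0.36 (SE; edgeR adjusted p = 0.0214), and the dilated libraries, at 77.8 and 102 CPM, lay around the untreated ones. *Ptn* is, however, a main transcript of stroma 2. There the mean level was 4532 CPM in untreated and 4587 CPM in constricted libraries. In untreated irises 23.0% of sphincter 2 nuclei (median 3460.5 UMIs) had a *Ptn* UMI, against 21.3% of dilator (median 3410), 20.5% of iris PE (median 3173) and 18.6% of stroma 1 nuclei (median 2691), and in constricted irises the shares were 7.88%, 13.2%, 12.4% and 13.9%. At this level it cannot be told apart from free RNA, and no expression of *Ptn* by sphincter 2 is read from it.

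Relative to stroma 2 of the same library, *Ptn* in sphincter 2 was at 2.08%, 2.21% and 1.74% in the untreated and at 0.736%, 0.384% and 0.551% in the constricted libraries. The sum of the 6 stroma 2 markers, which do not include *Ptn*, was at 1.55%, 1.19% and 1.59% and at 0.870%, 0.588% and 0.506% of its level in stroma 2, and thus moved in the same direction. This was not so for a wider set. The 19 other most abundant transcripts that are over 10 times higher in untreated stroma 2 than in any other cell type summed to 1.69%, 2.00% and 1.93% and to 1.82%, 1.88% and 1.34% of their level in stroma 2, so that the groups overlapped. In dilator muscle *Ptn* had 70.9 CPM in untreated and 40.0 CPM in constricted irises (log2 -0.80, edgeR adjusted p = 0.911), and in iris PE 77.7 and 40.9 CPM (log2 -0.84, adjusted p = 0.911). Sphincter 1 changed less, with 144 and 128 CPM (log2 -0.21, adjusted p = 0.965). There *Ptn* was at 2.81%, 3.87% and 2.89% and at 3.26%, 2.58% and 2.67% of stroma 2, with overlap. The effect in sphincter 2 differed from that of sphincter 1 by -1.57 ± 0.40 (SE, edgeR adjusted p = 0.179). It differed from that of dilator muscle by -1.07 ± 0.39 (SE, edgeR adjusted p = 0.629). Neither difference passed the threshold. In sphincter 2 of untreated replicate 2, 17 of the 46 *Ptn* UMIs came from 1 nucleus. Without nuclei called as doublets the log2 fold change in sphincter 2 was -1.45, with an edgeR adjusted p of 0.187, so that the call was lost. With nuclei that carried a marker of another cell type removed, *Ptn* was still called. The part of stroma 2 RNA in the *Ptn* difference was not tested.

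**Figure D3:**
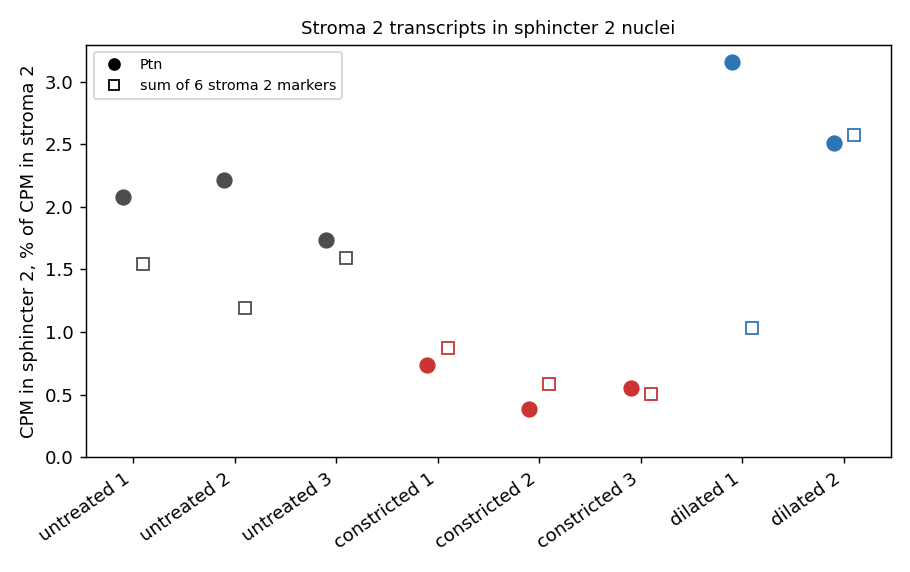
Level in sphincter 2 nuclei as a percent of the level in stroma 2 nuclei of the same library (y axis, from 0) for Ptn (filled circles) and for the sum of 6 stroma 2 markers (open squares), by library (x axis; grey untreated, red constricted, blue dilated). Both measures are below 1% in the 3 constricted libraries and above 1% in the 5 others.

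Of the list of the pleiotrophin and midkine axis, 17 of 26 genes were tested, and *Ptprz1* and *Ptn* were the 2 that passed. This list too was chosen with earlier results of these data known. *Mdk*, coding for midkine, stood at 147, 169 and 172 CPM in untreated and 175, 72.2 and 97.1 CPM in constricted libraries (log2 -0.41, edgeR adjusted p = 0.946). The phosphatase receptors *Ptprg* and *Ptprs* had log2 fold changes of 0.33 and 0.12 (adjusted p = 0.943 and 0.997). The median of the list was 0.11, against 0.01 for all genes.

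The next question was which of the called genes also differed in the other muscles. In dilator muscle, *Pappa* had 304, 236 and 245 CPM in untreated and 448, 561 and 491 CPM in constricted libraries, without overlap, at a log2 fold change of 0.97 ± 0.14 (SE; edgeR adjusted p = 0.0515), just outside the threshold. The difference between the effects in sphincter 2 and dilator was 0.13 (95% interval -0.17 to 0.42, edgeR adjusted p = 1). *Ptprz1* in dilator muscle had 282, 169 and 187 CPM and 353, 930 and 551 CPM, again without overlap (log2 1.57 ± 0.29, edgeR adjusted p = 0.355). Its effect differed from that of sphincter 2 by 0.46 (95% interval 0.13 to 0.79, adjusted p = 0.631), and from that of sphincter 1 by 1.34 (0.68 to 2.00, adjusted p = 0.174). *Pcsk5* in sphincter 1 had 183, 254 and 280 CPM in untreated and 85.6, 109 and 126 CPM in constricted libraries, without overlap and without passing the threshold (log2 -1.19 ± 0.24, edgeR adjusted p = 0.0666), and the effects of both sphincter classes differed by -0.10 (95% interval -0.65 to 0.45, adjusted p = 0.988). In dilator muscle *Pcsk5* had 117 and 103 CPM (log2 -0.18 ± 0.15), and here the difference of the effects passed (-1.17 ± 0.22, edgeR adjusted p = 0.000213). The same libraries enter each of these comparisons, so that a library that stands apart can move all of them.

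**Figure D4:**
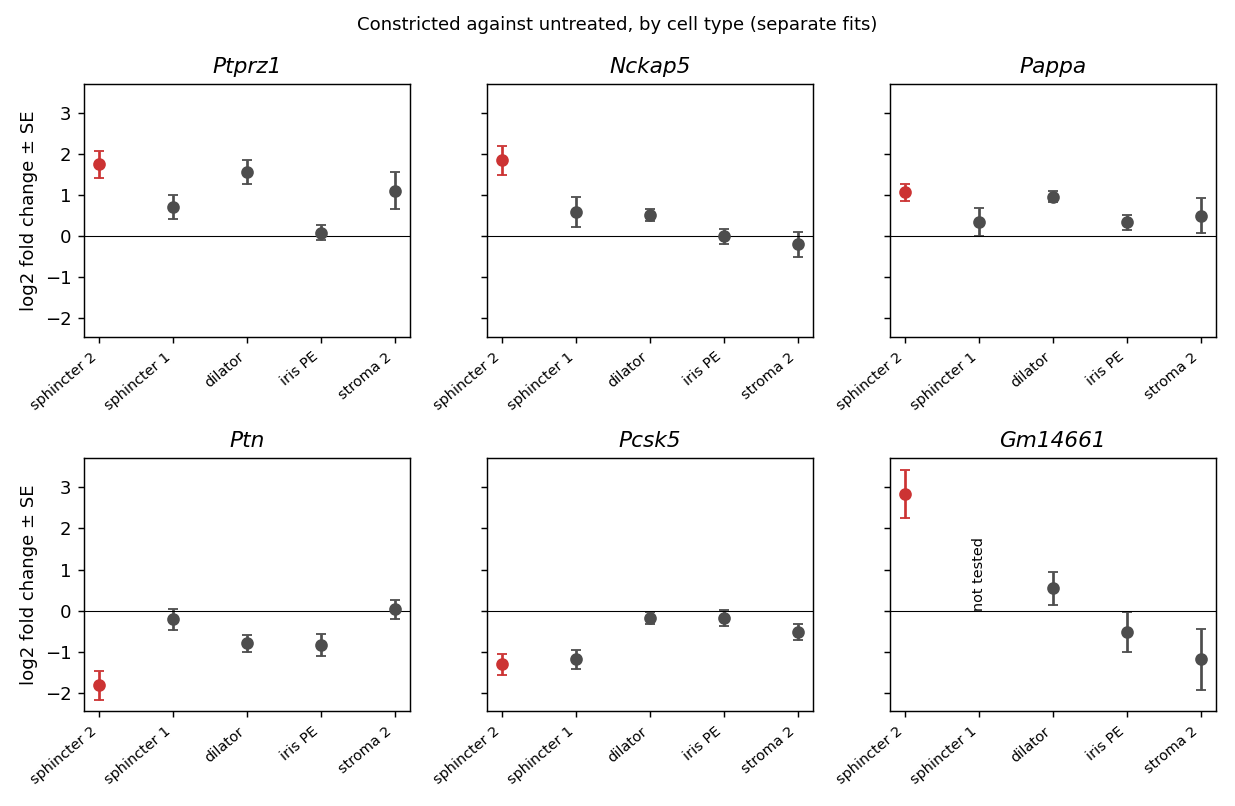
Log2 fold change with its SE (y axis) between constricted and untreated libraries for the 6 called genes in sphincter 2 (red) and in 4 other cell types (grey), each from a separate edgeR fit. Pappa and Ptprz1 are also above 0 in dilator muscle and Pcsk5 is below 0 in sphincter 1, at 0.97, 1.57 and -1.19.

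In the joint fit with sphincter 1, 2 of 7719 genes (0.0259%) had a constriction effect that differed between the muscles, and 470 (6.09%) had an unadjusted p under 0.05. Neither gene passed the threshold within sphincter 2. Within sphincter 1 alone neither passed (edgeR adjusted p = 0.110 for *Sybu* and 0.0992 for *AC129186.1*). *Sybu*, coding for the kinesin adaptor syntabulin, had a log2 fold change of 0.27 in sphincter 2 (adjusted p = 0.946) and mean levels of 186 and 83.1 CPM in untreated and constricted sphincter 1. The difference was 1.34 ± 0.27 (SE; edgeR adjusted p = 0.0350). For *AC129186.1* the levels in sphincter 1 were 70.2 and 17.4 CPM, and the difference was 1.94 ± 0.39 (adjusted p = 0.0350); the transcript stood at 951 CPM in untreated dilator muscle.

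In the joint fit with dilator muscle, 11 of 12671 genes (0.0868%) passed, and 656 (5.18%) had an unadjusted p under 0.05. Of the genes called in sphincter 2, *Pcsk5*, *Nckap5* (difference 1.28 ± 0.31) and *Gm14661* were among them. *Synpo2*, coding for the actin-bundling protein synaptopodin-2 and a marker of sphincter 2, had a log2 fold change of -0.20 in sphincter 2 and of 0.64 in dilator muscle, a difference of -0.81 ± 0.14 (SE; edgeR adjusted p = 4.58e-05). *Mical2*, a monooxygenase acting on actin, had 0.41 and 2.14, from a dilator level of 6.43 CPM in untreated and 25.0 CPM in constricted irises (difference -1.75 ± 0.28, adjusted p = 6.26e-06). *Fmn1*, a formin that nucleates actin filaments, had 1.21 and -0.62 (difference 1.81 ± 0.33, adjusted p = 0.000213), and *Gm13963*, an antisense RNA within *Fmn1*, 1.21 and -1.16. For *Prkg1*, the cyclic GMP-dependent kinase of smooth muscle, the values were 0.87 and -0.01 (difference 0.75 ± 0.17, adjusted p = 0.0122), and for *Col4a6*, a basement membrane collagen chain, 0.71 and 0.04 (difference 0.66 ± 0.15, adjusted p = 0.0341). In untreated sphincter 1 *Fmn1*, *Gm13963*, *Prkg1* and *Col4a6* had 288, 152, 984 and 1223 CPM, against 50.0, 21.2, 359 and 514 CPM in sphincter 2. The part of sphincter 1 RNA in these values was not tested. *Stxbp5l* and *Plcl2* completed the 11, with differences of -0.84 and -1.64. Of these, *Synpo2*, *Mical2*, *Fmn1*, *Prkg1*, *Gm13963*, *Plcl2*, *Col4a6* and *Stxbp5l* did not pass in sphincter 2 itself. Within dilator muscle alone none of the 11 passed. The edgeR adjusted p there was 0.119 for *Mical2*, 0.967 for *Synpo2* and 0.9999 for the others.

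The genes next in order of p in sphincter 2, down to the 20th, did not pass the threshold and are given as values. *Stxbp5l*, coding for tomosyn-2, which restrains vesicle fusion, had 275, 589 and 685 CPM in untreated and 282, 209 and 245 CPM in constricted libraries, with untreated replicate 1 among the constricted values (log2 -1.11, edgeR adjusted p = 0.0512). *Lims2*, coding for PINCH-2, a partner of integrin-linked kinase, had 18.3, 25.0 and 23.7 CPM against 94.1, 72.2 and 59.1 CPM (log2 1.70, adjusted p = 0.0631). *Trim9*, a ubiquitin ligase of neurons, had 55.0, 49.9 and 25.2 CPM against 107, 137 and 84.4 CPM (log2 1.48, adjusted p = 0.0631). *Cd200*, a membrane glycoprotein that engages an inhibitory receptor on myeloid cells, had 202, 144 and 154 CPM against 256, 303 and 363 CPM (log2 0.98, adjusted p = 0.0631). In the last 3 genes the groups did not overlap. *Cd200* passed the threshold in the opposite direction with dilation, at 48.2 and 61.3 CPM (log2 -1.44, adjusted p = 0.00670).

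Among the remaining genes of these 20, *Srrm4*, a splicing regulator of neuronal microexons, *Samd4*, the cytoskeletal *Actn4* and *Palld*, *Col11a1* and *Igfbp2* were fitted higher, with log2 fold changes of 0.74 to 2.21, and *Col23a1*, *Npsr1*, *Adamts16* and *Cntnap4* were fitted lower, with -1.01 to -2.10. Their adjusted p was 0.0767 to 0.143. The genes fitted lower had higher levels in other cell types. In untreated irises *Col23a1* had 1768 CPM in stroma 2 and 126 CPM in sphincter 2, and *Adamts16* 1366 and 56.7 CPM. *Npsr1* had 1705 CPM in untreated dilator muscle and 173 CPM in sphincter 2, and *Cntnap4* 378 and 174 CPM. The part of RNA of other cell types in these values was not tested. Over the 20 genes, 13 were fitted higher and 7 lower, and in 16 the groups did not overlap, a pattern found in 11.2% of all genes tested. As the genes were chosen by p, this count describes them and is no further evidence.

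The receptors and effectors of the drug did not pass the threshold, nor did the adrenergic receptor gene *Adra1a*, which is not a target of pilocarpine. *Chrm3*, the M3 receptor, had 660, 543 and 792 CPM in untreated and 838, 787 and 705 CPM in constricted libraries (log2 0.25 ± 0.20, edgeR adjusted p = 0.950). *Chrm2*, the M2 receptor, had 211, 194 and 181 CPM against 253, 354 and 135 CPM (log2 0.34 ± 0.25, adjusted p = 0.946), and *Adra1a*, the alpha-1A adrenergic receptor, 247, 196 and 234 CPM against 256, 144 and 97.1 CPM (log2 -0.34 ± 0.26, adjusted p = 0.946). In all 3 genes the groups overlapped. The phospholipase gene *Plcb4* stood at 3848 to 4809 CPM and 3912 to 4423 CPM (log2 -0.07), the inositol trisphosphate receptor gene *Itpr1* at 918 to 1081 CPM and 899 to 1321 CPM (log2 0.13) and the ryanodine receptor gene *Ryr3* at 796 to 980 CPM and 747 to 1162 CPM (log2 0.07). The diacylglycerol kinase gene *Dgki*, a marker of the class, had a log2 fold change of 0.16. Of the 43 genes listed for muscarinic receptors and Gq signalling, 24 were tested and 0 passed, while 4 had an unadjusted p under 0.05, all of them higher (16.7% of those tested, against 3.75% of all genes tested; *Rock2*, *Grk5*, *Prkca* and *Rock1*, at 0.75, 1.03, 0.68 and 0.48). *Rock1* and *Rock2* code for the kinases that sensitize the contractile apparatus to calcium and *Grk5* for a receptor kinase. These 4, which overlapped between the groups, were named after their values were seen. The median of the list was 0.13, and it lay between -0.06 and 0.21 over the 18 alternative settings.

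Calcium channels and stores gave 0 calls. Of 49 listed genes 21 were tested, with a median of 0.06 and 1 gene at an unadjusted p under 0.05. This was *Calm2*, a calmodulin gene, with 541, 474 and 489 CPM against 607, 613 and 688 CPM (log2 0.39, edgeR adjusted p = 0.799). The calcium channel subunit genes *Cacna2d3* and *Cacnb4* had log2 fold changes of 0.14 and 0.42. Among the potassium and chloride channels (14 of 27 tested, 0 called, median 0.06), *Kcnip4*, a subunit of A-type potassium channels, was at 3203 to 3289 CPM in the untreated and 2313 to 2503 CPM in the constricted libraries (log2 -0.41, adjusted p = 0.717), and it passed with dilation (-1.08, adjusted p = 0.00172).

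The genes of the contractile apparatus leaned upward, below the threshold. The list was chosen with earlier results of these data known. Of 43 listed genes 39 were tested and 0 passed. Their median log2 fold change was 0.27, against 0.01 for all genes, and 13 had an unadjusted p under 0.05, all 13 higher, or 33.3% of those tested against 3.75% of all genes tested. In 11 genes every constricted library was above every untreated one, a pattern found in 5.13% of all genes tested, and in 0 genes every one was below, which is found in 6.11%. *Myh11*, the smooth muscle myosin heavy chain, had 2492, 3171 and 2740 CPM in untreated and 3853, 4100 and 3638 CPM in constricted libraries (log2 0.49 ± 0.16, edgeR adjusted p = 0.503). *Flna*, coding for the actin cross-linker filamin A, had 1136, 922 and 906 CPM against 1279, 1328 and 1654 CPM (log2 0.58, adjusted p = 0.353). *Tpm1*, tropomyosin 1, ran from 1748 to 2034 CPM and from 2043 to 2347 CPM (log2 0.26, adjusted p = 0.923). Other members with small p, named after their values were seen, were *Tln1* (talin-1, log2 0.94), *Smtn* (smoothelin, 0.76), *Csrp1* (0.56), *Cald1* (caldesmon, 0.41) and the calponin genes *Cnn1* and *Cnn2* (0.61 and 0.40). Their adjusted p was 0.222 to 0.831. *Acta2*, smooth muscle actin, was near the median of the list (1140 to 1567 CPM and 1315 to 1637 CPM, log2 0.25, adjusted p = 0.960), while *Mylk*, the myosin light chain kinase (5226 to 5902 CPM and 4258 to 5733 CPM, log2 -0.05), and the long noncoding RNA *Carmn* (-0.01) were near 0.

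The count of contractile genes with a small p depended on the libraries. It was 6 of 39 without untreated replicate 3, 8 without untreated replicate 2, and 10 of 38 with both of the thinnest libraries left out, and it lay between 6 and 15 over the 18 alternative settings, with medians of 0.22 to 0.38. In sphincter 1, 11 of 39 tested genes of the list had an unadjusted p under 0.05 and a higher level (28.2%, against 3.52% of all genes tested there; median 0.25), and in dilator muscle 12 of 40 (30.0%, against 2.75%; median 0.26). In stroma 1 it was 1 of 28 (against 2.82%), with a median of 0.00, and in iris PE 1 of 37 (against 2.29%), with a median of -0.07. Ciliary body had 3 of 29 (10.3%, against 3.02%, median 0.18) and stroma 2 had 3 of 39 (7.69%, against 3.01%, median 0.03). Leukocytes had 2 of 21 (9.52%, against 3.11%, median 0.30). Ciliary body epithelium had 1 of 33 (against 3.87%, median 0.17) and endothelium 0 of 13 (against 5.47%, median -0.13). The higher share of nuclei with a marker of another cell type in untreated sphincter 2 moved along with this list. With those nuclei left out the count was 14 of 39, but this does not remove such RNA from nuclei without a captured marker. The part of RNA of other cell types in the values of this list was not tested.

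A list of integrin adhesion genes, which was drawn up after *Lims2*, *Actn4* and *Palld* had been seen among the first 20, leaned the same way and carries no test. Of 34 genes 26 were tested, 0 passed, and 13 had an unadjusted p under 0.05, all higher (50.0% of those tested, against 3.75% of all genes tested), with a median of 0.52. In sphincter 1 it was 8 of 28 (28.6%, against 3.52%; median 0.26) and in dilator muscle 9 of 32 (28.1%, against 2.75%; median 0.20). The list shares 5 genes with the contractile list, and 9 of the 21 others tested had such a p, with a median of 0.20 over these 21. *Itgb1*, the integrin beta-1 subunit, had 174, 142 and 166 CPM in untreated and 250, 260 and 274 CPM in constricted libraries (log2 0.75 ± 0.21, edgeR adjusted p = 0.219). *Ilk*, integrin-linked kinase, had 55.0, 72.8 and 65.2 CPM against 172, 72.2 and 135 CPM, with constricted replicate 2 within the untreated range (log2 1.02 ± 0.28, adjusted p = 0.219). *Actn4*, the actin cross-linker alpha-actinin-4, had 211, 216 and 202 CPM against 325, 476 and 367 CPM (log2 0.89, adjusted p = 0.102), and *Palld*, palladin, 779, 637 and 546 CPM against 1182, 1075 and 882 CPM (log2 0.74, adjusted p = 0.136). *Fermt2*, kindlin-2, stood at 547 to 641 CPM and 556 to 587 CPM (log2 0.03).

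**Figure D5:**
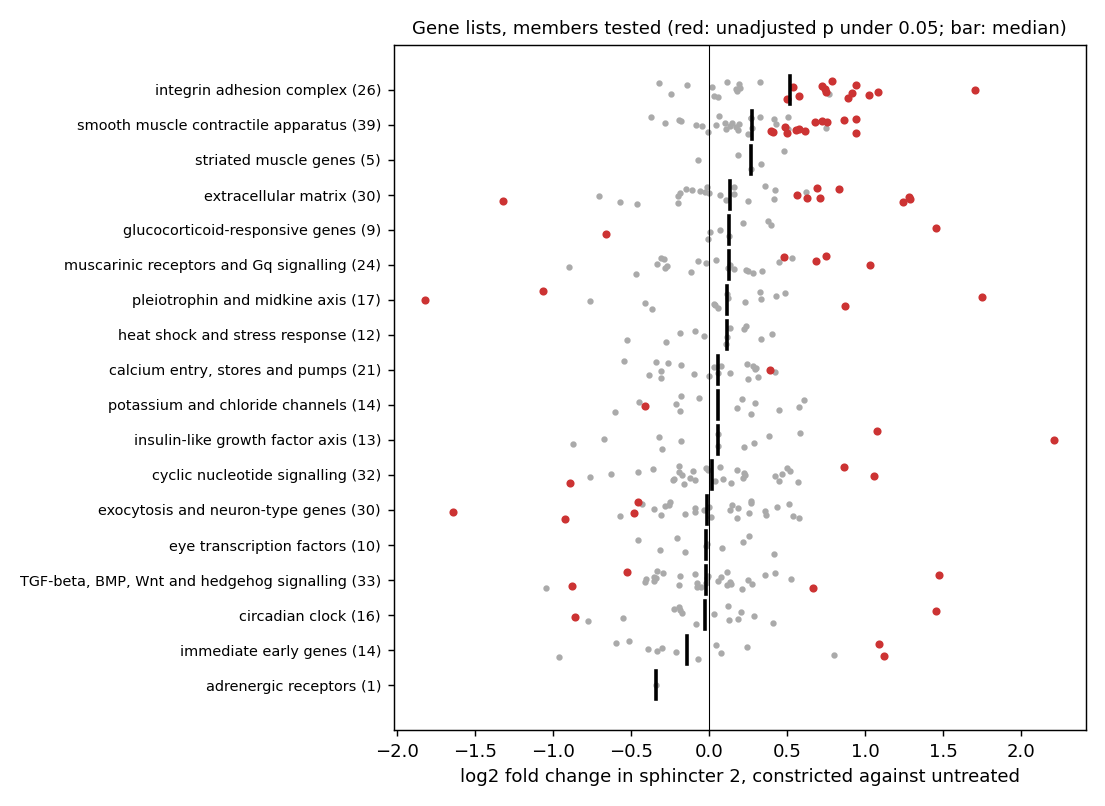
Log2 fold change in sphincter 2 between constricted and untreated libraries (x axis) of each tested member of 18 gene lists (y axis, number tested in brackets), with the median of each list as a black bar and members with an unadjusted p under 0.05 in red. The integrin adhesion and contractile lists have medians of 0.52 and 0.27 and hold 13 red members each, all to the right of 0. The former was drawn up after values were seen, and the other lists were chosen with earlier results of these data known.

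Of 62 extracellular matrix genes 30 were tested and 0 passed, 8 had an unadjusted p under 0.05 and a higher level (26.7%, against 3.75% of all genes tested) and 1 a lower level (against 2.18%), and the median was 0.13. Higher members with such a p were 5 of 34 in sphincter 1 (14.7%, against 3.52%), 10 of 57 in dilator muscle (17.5%, against 2.75%) and 10 of 60 in stroma 2 (16.7%, against 3.01%). They were 5 of 15 in endothelium (33.3%, against 5.47%), 3 of 9 in leukocytes (33.3%, against 3.11%) and 6 of 29 in ciliary body (20.7%, against 3.02%). Iris PE had 5 of 55 (9.09%, against 2.29%) and ciliary body epithelium 2 of 36 (5.56%, against 3.87%). In stroma 1 it was 1 of 30 (3.33%, against 2.82%). The basement membrane collagen chains *Col4a5* and *Col4a6*, whose genes are neighbours on the X chromosome, had 321, 368 and 328 CPM against 464, 693 and 430 CPM (log2 0.63, edgeR adjusted p = 0.440) and 614, 470 and 458 CPM against 688, 1061 and 692 CPM (log2 0.71, adjusted p = 0.219). Both did not overlap between the groups, and the dilated libraries lay lower than the untreated, at 221 to 244 CPM and 351 to 393 CPM. The 8 higher members did not share a direction with dilation. *Col4a2*, *Sparc*, *Postn* and *Fbn2* were fitted at 1.60, 0.75, 0.58 and 0.13 with dilation. *Col4a5*, *Col4a6*, *Col8a1* and *Col11a1* were fitted at -0.48, -0.35, -0.14 and -1.29. Only *Col4a2* passed with dilation (edgeR adjusted p = 0.00782). *Col8a1* had 119, 83.2 and 89.0 CPM in untreated and 71.4, 613 and 88.6 CPM in constricted libraries. Its higher fitted value thus rests on constricted replicate 2 alone. *Col23a1*, a transmembrane collagen, had 128, 137 and 113 CPM against 64.9, 28.9 and 42.2 CPM (log2 -1.32, adjusted p = 0.0767). Its mean in untreated stroma 2 was 1768 CPM, and the part of such RNA in these values was not tested. The fibronectin gene *Fn1* had a log2 fold change of 0.07.

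Of the immediate early genes, *Fos* and *Egr1* were at or near the limit of detection. *Fos* had 1 UMI in each untreated library and 0 of the 683539 UMIs of the 3 constricted libraries, which allows a level of up to 4.39 CPM, and *Egr1* had 2, 0 and 1 UMIs and again 0. In the dilated libraries *Fos* had 3 and 49 UMIs. A difference between the untreated and the constricted group was not detectable at this depth, and the limit covers counting error only. Of 45 listed immediate early genes 14 had enough counts to be tested, 0 passed, and the median was -0.14. Against this median, 2 had an unadjusted p under 0.05 and a higher level (14.3% of those tested, against 3.75% of all genes tested), named after their values were seen. *Fosl1*, a Fos family member, had 36.6, 22.9 and 19.3 CPM in untreated and 35.7, 57.7 and 59.1 CPM in constricted libraries (log2 1.12, edgeR adjusted p = 0.638), and *Nptx2*, neuronal pentraxin 2, 55.0, 37.5 and 19.3 CPM against 48.7, 36.1 and 101 CPM (log2 1.09, adjusted p = 0.575). In both the groups overlapped. The most abundant of them were *Jun* (55.0 to 59.3 CPM and 28.9 to 54.9 CPM, log2 -0.39), *Jund* (log2 0.24), *Klf6* (0.04) and *Homer1* (-0.21).

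Cyclic nucleotide signalling (32 of 52 genes tested, median 0.01) gave 0 calls. *Pde10a*, a cyclic nucleotide phosphodiesterase, had 45.8, 2.08 and 19.3 CPM in untreated, 32.5, 14.4 and 8.44 CPM in constricted and 393 and 392 CPM in dilated libraries. The untreated and constricted values overlapped (log2 0.42 ± 0.61, edgeR adjusted p = 0.990), and the mean CPM, 22.4 and 18.4, had the opposite sign to the fitted value. The phosphodiesterase genes *Pde4d* and *Pde1c* had log2 fold changes of 0.22 and -0.18. Of the exocytosis and neuron-type genes that this muscle expresses (30 of 45 tested, 0 called, median -0.02), *Syt1*, the calcium sensor of vesicle release, was at 1713 to 2412 CPM and 2071 to 2627 CPM (log2 0.15), and *Unc13c*, a vesicle priming factor, at 1292 to 1776 CPM and 903 to 1400 CPM (log2 -0.46, adjusted p = 0.702). The 4 genes of this list with an unadjusted p under 0.05 were all lower, a pattern of 2.18% of all genes tested.

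The secreted Wnt inhibitor gene *Dkk2* had 825, 337 and 440 CPM in untreated and 256, 296 and 245 CPM in constricted libraries (log2 -0.88, edgeR adjusted p = 0.201), without overlap, and 107 and 92.0 CPM in the dilated libraries (log2 -2.22, adjusted p = 1.74e-05). Otherwise the list of TGF-beta, BMP, Wnt and hedgehog genes was centred on -0.02 (33 of 58 tested, 0 called). *Hhip*, coding for a hedgehog-binding protein and a marker of the class, had a log2 fold change of 0.14. The eye transcription factors (10 of 25 tested, 0 called, 0 at an unadjusted p under 0.05) held *Pax6* at 1319 to 1557 CPM and 1545 to 1751 CPM (log2 0.25) and *Mitf* at 522 to 724 CPM and 610 to 693 CPM (log2 -0.02). The heat shock and stress list (12 of 25 tested, median 0.11), the striated muscle list (5 of 23, median 0.27), the circadian clock list (16 of 22, median -0.03) and the glucocorticoid-responsive list (9 of 18, median 0.13) gave 0 calls. Of 9 adrenergic receptor genes, *Adra1a* alone had enough counts to be tested.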

How the data were processed

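Single nucleus libraries (10x Genomics) were aligned by the authors to mm10 (exons and introns) with Cell Ranger 3.1.0, filtered and clustered with Seurat. The deposited matrices hold UMI counts, not normalized, and the deposited annotation gives each nucleus its assigned cell type, its totals of UMIs and genes, and a percent of mitochondrial origin.

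Here the counts of sphincter 2 nuclei were summed per library, for 22873 genes, and given as CPM. Libraries were grouped by their titles into 3 untreated, 3 constricted and 2 dilated. The quasi-likelihood test of edgeR 4.0.16 (R 4.3.3; TMM, filterByExpr, two-sided) was fitted to all 8 libraries, with Benjamini-Hochberg adjustment over all 6691 genes tested. The SE is the log2 fold change over the square root of F. Differences of effects came from a joint fit with a term per library, and 95% intervals are 1.96 SE. The script was tested on simulated counts at the depth of these libraries. It recovered 48 of 91 genes with a true absolute log2 fold change of 1 (52.7%). At a true absolute value of 2 it recovered 88 of 93 genes (94.6%), and 10 unchanged genes were called. Both sets were changed in the same simulation, and only genes past the filter were counted. The simulated spread of each gene was that of the fitted trend. Doublets were called with Scrublet and kept, except in an alternative. Gene positions are from GENCODE vM21 (GRCm38, the same build as mm10), where 22498 of the 22873 gene names were matched. DESeq2 1.42.0, other filters and scalings, and fits without single libraries were alternatives. The replicate numbers were not taken to pair the libraries (correlations of deviations 0.0512, 0.00893 and 0.0860 for the 3 same-numbered pairs).

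Named were all genes past the threshold, those of smallest p up to 20, the 4 most abundant members of each list, and a fixed set of receptors and effectors; some results under this rule are not reported here. The members and lists were chosen with earlier results of these data known. Depth was 109148 to 674523 summed UMIs per library, so weak genes rest on a few UMIs.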

Additional observations from a re-analysis of the deposited data

Results flagged for a closer look

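In the joint fits, the constriction effect differed between sphincter 2 and another muscle in 13 tests, on a difference of log2 fold changes tested in edgeR. Against sphincter 1 the difference was 1.34 for *Sybu* and 1.94 for *AC129186.1*. Against dilator muscle it was 1.81 for *Fmn1*, 2.43 for *Gm13963*, 0.75 for *Prkg1*, 0.66 for *Col4a6*, 1.28 for *Nckap5* and 2.37 for *Gm14661*, all higher in sphincter 2. It was -1.75 for *Mical2*, -0.81 for *Synpo2*, -1.17 for *Pcsk5*, -0.84 for *Stxbp5l* and -1.64 for *Plcl2*. None of these genes passed the threshold within the other muscle of its comparison alone. *Gm13963* overlaps *Fmn1* on the opposite strand, so that these 2 results may not be independent. With all libraries thinned to the depth of the smallest, 0 genes differed against either muscle. The value of *Gm14661* rests on 2 nuclei.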

How the results depend on the processing

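The number of genes called in sphincter 2, with those higher and lower, was 6 (4 and 2) in the main analysis. It was 1 (1 and 0) with DESeq2, 24 (15 and 9) without the filter on low counts, 11 (8 and 3) with the 6 constricted and untreated libraries alone, 11 (8 and 3) with the series of library numbers as a block, and 2 (2 and 0) with libraries thinned to the smallest. With the series block, constricted replicate 2 is alone in its series and adds nothing to the estimates. Leaving out 1 library gave 0 to 10 calls, 0 to 8 higher and 0 to 4 lower. Against sphincter 1 (2 differences), 0 were left with DESeq2, with the 6 libraries alone, without doublets or after thinning, and 4 were called without the filter, 8 without nuclei that carry another type's marker, and 4 without both of the thinnest libraries, an alternative chosen after seeing the data. Leaving out 1 library gave 0 to 10. Against dilator muscle (11 differences), 1 was called with DESeq2, 3 with the series block, 7 without doublets and 0 after thinning, and 4 to 13 with 1 library left out. With 1 library left out a group kept 2 libraries, and the cause of these shifts was not tested.

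The fit with the replicate block gave 25 calls (17 and 8) in sphincter 2, 7 differences against sphincter 1 and 6 against dilator muscle; all 6 called genes passed in it. Correlations of the deviations were low in all pairs, at most 0.0860. Untreated replicates 1 and 3 correlated best with the constricted library of the same number (0.0512 and 0.0860). Untreated replicate 2 correlated best with constricted replicate 3 (0.0452), and with constricted replicate 2 at 0.00893. The highest values were thus those of pairs within a series of library numbers, for which the main fit has no term. The replicate number is not taken to pair the libraries.

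The 6 called genes kept their sign under every alternative that tested them, while 4 (*Ptprz1*) to 10 (*Ptn*) of up to 18 alternatives ended the call. Signs that turned were those of genes near 0: *Chrm2* with the series block (-0.17), *Itpr1* without constricted replicate 1 (-0.068; without single libraries -0.068 to 0.23), *Ryr3* with the series block (-0.10), without both of the thinnest libraries (-0.053) and without single libraries (-0.091 to 0.20), and *Pde10a* after thinning (-0.61) and without single libraries (-0.46 to 0.86). The difference in the share of nuclei was 0.0266 percentage points without doublets, 0.203 without nuclei with another type's marker, and -0.277 to 0.307 without 1 library.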
